A study of Mus musculus with 9 samples.

Results

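Lysosomes digest what macrophages engulf and what autophagy delivers from the cytosol. The transcripts of 33 genes of these pathways were followed in RAW 264.7 cells, a transformed mouse macrophage line. The genes were taken by name from the deposited count table, and each matched exactly 1 of the 51826 genes counted. By role they were 3 genes of the lysosomal membrane, 7 cathepsins, 8 other hydrolases or their activator, 2 transcription factors, 5 genes of autophagy initiation and nucleation, 3 of the conjugation machinery, 3 ATG8 proteins and 2 cargo receptors. Of the 33, 31 had enough counts to be tested. Ctsc, the dipeptidyl peptidase cathepsin C, had 0 to 7 counts per library, and Optn, the cargo receptor optineurin, had 0 to 8, so neither was tested.

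Polyadenylated RNA was sequenced from 9 cultures in 3 groups of 3, labelled as biological replicates of their group. One group was given vehicle alone. Another was given 300 ng/mL lipopolysaccharide (LPS), the bacterial cell wall component sensed by TLR4, for 6 h. The remaining group took calycosin, a plant isoflavone, at 100 µg/mL for 24 h ahead of LPS at that dose and time. No group had calycosin without LPS, so its action on resting cells was not measured.

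Lysosomal enzymes are made in the endoplasmic reticulum, sorted through the mannose 6-phosphate pathway and activated in the acid lumen that the V-ATPase proton pump maintains. Autophagy begins with the ULK1 kinase complex and a lipid kinase complex that holds BECN1 and ATG14, after which ATG8 proteins are joined to the growing membrane and bind cargo receptors. TFEB and MITF are basic helix-loop-helix transcription factors of one family that bind CACGTG-type elements in the promoters of many lysosomal genes, and in macrophages the pathway also serves antigen processing and the killing of microbes.

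Total counts per library ran from 27784737 to 38524105. Levels are given in CPM, counts scaled to the effective library size (TMM), in the order of replicates 1, 2 and 3. The mitochondrial share of counts was 3.79%, 3.68% and 21.9% with vehicle, 13.0% to 14.7% with LPS and 17.2%, 7.45% and 19.4% with calycosin plus LPS, so vehicle replicate 3 and calycosin plus LPS replicate 2 stood apart from their groups. In vehicle replicate 3, 9 of the 31 tested members lay more than 1.5-fold below the mean of the other vehicle libraries (geometric, in log2 CPM) and 3 lay more than 1.5-fold above it, against 17.4% and 16.9% of all genes tested. The median difference of the members there was -0.36 in log2 units, against -0.01 over all 14458 genes tested. In calycosin plus LPS replicate 2 the same limits were passed by 2 members below and 1 above, against 7.96% and 7.46% of all genes. Of the 8 macrophage markers counted, 7 were tested and Mertk was near 0, and their summed level was 4594 to 4999 CPM with vehicle, 4638 to 4830 CPM with LPS and 3380 to 3962 CPM with calycosin plus LPS. Within this sum single markers moved in opposite directions with LPS: Csf1r fell from 477 to 127.1 CPM and Lyz2 from 2560 to 1193 CPM in the group means, while Cd14 rose from 513 to 1248 CPM, Fcgr1 from 50.8 to 282 CPM and Spi1 from 144 to 217 CPM. The 24 markers of other cell types summed to 1.59 to 1.67, 6.40 to 10.1 and 2.07 to 3.11 CPM in the same order, with 10 of them at 0 in all libraries (among them Epcam and Cd3g) and Cdh5 alone at 3.78 to 5.45 CPM with LPS. In bulk RNA, fewer cells that express a gene and less RNA per cell cannot be told apart.

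The promoter sequences are shown because the element bound by the TFEB family was common among the members. RefSeq (GRCm38.p6) gave a window from 250 bases before to 50 bases after the start for 30 of the 33 members. The heptamer TCACGTG, searched on both strands and so also as CACGTGA, was in at least 1 window of 10 of these 30 genes (33.3%), against 4.29% of the 27025 genes with a window. Its core CACGTG, which is contained in every TCACGTG, was in 12 (40.0%), against 8.09% of all genes, and TCATGTG was in 3 (10.0%), against 4.31%. These matches are a description of letters and not of binding. Atg7 and Atg14 have 1 window each, at a RefSeq start that lies 28.0 kb and 2.2 kb inside the gene as GENCODE M21 bounds it, so these windows are at internal starts. Tfeb, Mitf and Psap have windows at both outer and internal starts. Ctsa has them too, and its heptamer is only in the window at a start 0.9 kb inside the gene. Wipi1 and Ctsl have 1 window each, at starts 0.6 kb and 0.4 kb inside the gene. Their windows lie within the gene, so the bases before their outer starts were not searched. The 250 bases before the RefSeq start follow for Lamp1 and Mcoln1, of the lysosomal membrane, for the protease gene Ctsd, for the hydrolase genes Naglu and Glb1, for the conjugation gene Atg7, and for Wipi1, which had none of the 3 motifs but is among the members that changed most with calycosin. They are written 5′ to 3′ on the strand of the gene (minus for Ctsd and Wipi1, plus for the others), and the capitals mark the matches.
Lamp1 chr8:13158911-13159160: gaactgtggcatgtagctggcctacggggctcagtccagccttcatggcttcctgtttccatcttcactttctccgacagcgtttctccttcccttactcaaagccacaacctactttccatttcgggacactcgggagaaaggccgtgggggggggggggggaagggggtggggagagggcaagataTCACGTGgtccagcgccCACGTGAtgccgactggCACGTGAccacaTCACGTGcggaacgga
Mcoln1 chr8:3500269-3500518: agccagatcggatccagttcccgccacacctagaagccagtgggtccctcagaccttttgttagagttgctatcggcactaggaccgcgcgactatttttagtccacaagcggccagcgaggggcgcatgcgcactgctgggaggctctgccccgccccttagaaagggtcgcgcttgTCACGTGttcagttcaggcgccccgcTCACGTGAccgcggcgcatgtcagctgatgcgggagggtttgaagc
Ctsd chr7:142387828-142388077: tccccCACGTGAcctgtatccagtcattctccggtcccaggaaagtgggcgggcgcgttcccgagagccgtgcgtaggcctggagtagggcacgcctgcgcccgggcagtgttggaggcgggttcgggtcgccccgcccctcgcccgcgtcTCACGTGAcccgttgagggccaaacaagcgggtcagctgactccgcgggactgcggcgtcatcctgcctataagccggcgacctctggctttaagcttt
Naglu chr11:101069844-101070093: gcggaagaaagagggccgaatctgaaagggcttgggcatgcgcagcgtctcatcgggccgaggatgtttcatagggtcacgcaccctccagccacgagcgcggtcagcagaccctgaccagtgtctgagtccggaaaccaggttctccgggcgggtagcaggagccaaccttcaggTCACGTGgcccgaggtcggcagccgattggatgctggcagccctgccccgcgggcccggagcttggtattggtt
Glb1 chr9:114400828-114401077: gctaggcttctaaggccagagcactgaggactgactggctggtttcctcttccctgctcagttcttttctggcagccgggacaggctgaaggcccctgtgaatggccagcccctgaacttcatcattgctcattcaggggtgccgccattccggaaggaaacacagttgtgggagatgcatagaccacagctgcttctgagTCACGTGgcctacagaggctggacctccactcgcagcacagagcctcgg
Atg7 chr6:114670846-114671095: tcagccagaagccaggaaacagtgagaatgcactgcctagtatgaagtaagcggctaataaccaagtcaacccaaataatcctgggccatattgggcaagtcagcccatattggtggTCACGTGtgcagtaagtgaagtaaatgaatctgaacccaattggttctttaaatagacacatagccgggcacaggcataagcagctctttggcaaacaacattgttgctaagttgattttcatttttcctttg
Wipi1 chr11:109611390-109611639: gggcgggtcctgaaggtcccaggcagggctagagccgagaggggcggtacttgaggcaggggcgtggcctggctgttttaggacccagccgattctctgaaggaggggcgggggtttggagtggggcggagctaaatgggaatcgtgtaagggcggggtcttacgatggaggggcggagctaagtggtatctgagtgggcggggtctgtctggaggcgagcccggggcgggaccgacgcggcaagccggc

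Among members expressed in vehicle cells, levels per transcript length, in the deposited TPM, spanned from the proteases to the regulators. Ctsd was highest at 5219 ± 2752 TPM (SD, n = 3), with libraries at 6684, 6929 and 2044, the lowest of them within the range of Lamp1 (1446 to 2054). Next came Lamp1 at 1847 ± 347.6, Ctsb at 1700 ± 502.9 and Sqstm1 at 1662 ± 946.7 TPM, which did not differ beyond their spread. At the low end of the tested members stood Tfeb at 10.9 ± 4.66, Wipi1 at 8.92 ± 3.08 and Atg14 at 8.67 ± 2.35 TPM, also within each other's spread. With LPS the first 4 were Sqstm1 at 1410 ± 258.3, Ctsb at 1265 ± 43.9, Ctsd at 1261 ± 153.8 and Lamp1 at 1198 ± 65.7 TPM, and Mitf rose from rank 28 to rank 17 of the 33 while Tfeb went from 29 to 31. The members together took 2.57%, 2.64% and 1.56% of counts in the vehicle libraries, 1.39% to 1.57% with LPS and 1.38%, 1.78% and 1.35% with calycosin plus LPS. The share was thus high in the 2 vehicle libraries with few mitochondrial counts and lower in vehicle replicate 3, which lay within the range of the LPS libraries.

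The comparison of LPS with vehicle measures how the inflammatory stimulus moved these genes. With LPS 4 of 5 genes that start autophagy and 3 of 8 hydrolases fell, Tfeb fell 9.29-fold, and Mitf (4.37-fold), the cysteine proteases Ctsl and Ctss and the membrane glycoprotein Lamp2 rose. At an adjusted p below 0.05 (edgeR quasi-likelihood test, Benjamini-Hochberg over all genes tested), 6 of the 31 members were higher and 12 lower with LPS, and 13 missed the threshold. Of all genes tested, 27.3% were higher and 28.9% lower, 56.3% in all. The members' median log2 fold change was -0.35, against -0.07 over all genes. With a GC content offset these were -0.18 and -0.02, and with only libraries above 10% mitochondrial counts, which leaves 1 vehicle library, -0.11 and -0.03. All 3 LPS libraries lay above all 3 vehicle libraries for 7 members (29.5% of all genes tested) and below them for 12 (31.3%). Without vehicle replicate 3 and calycosin plus LPS replicate 2, a choice made after the data were seen, the counts were 8 higher and 18 lower. Of all 14845 genes tested there, 4600 were higher and 5239 lower.

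Comparing calycosin plus LPS with LPS alone asks what the pretreatment changed in stimulated cells. Tfeb, Ulk1 and Wipi1 were 3.06-fold, 2.26-fold and 2.25-fold higher, and Atg7, Glb1 and Ctss 1.76-fold, 1.60-fold and 1.46-fold lower. By the same test 6 members were higher (Mcoln1, Tfeb, Ulk1, Atg14, Wipi1 and Atg5) and 5 lower (Ctss, Ctsz, Glb1, Mitf and Atg7), against 16.1% and 12.9% of all genes tested and 29.1% in either direction. The other 20 missed the threshold. The median over the members was -0.23 in log2, against 0.02 over all genes, and the groups did not overlap for 7 members that were higher (26.3% of all genes) and 14 that were lower (23.4%). Without the 2 libraries that stood apart, 7 members were higher and 13 lower, against 3063 and 2670 of all 14845 genes tested there.

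Set against vehicle, the pretreated and stimulated cells had 4 members higher and 14 lower, with 25.4% and 23.6% of all genes tested called in these directions and 49.0% in either. The 4 were Ctsl, Ctss, Mitf and Sqstm1. The members' median was -0.39, against -0.00 over all genes, and with the GC content offset -0.10 against -0.02. All libraries of the group lay above the vehicle libraries for 8 members (29.1% of all genes) and below them for 14 (27.1%). Without the 2 libraries that stood apart the counts were 4 and 16, against 4516 and 4404 of all 14845 genes tested there. The 3 comparisons share libraries pairwise, so their values are set side by side below and not correlated. All of them use TMM scaling, and TPM values are not so scaled. In a limma fit of log2(TPM + 1) the median of all genes tested was shifted by -0.71 for LPS against vehicle, by 0.30 for calycosin plus LPS against LPS and by -0.42 for calycosin plus LPS against vehicle, so changes are to be read relative to the other genes of the library. In that fit Lamp2 and Mitf were the 2 members called higher with LPS (log2 differences of 0.69 and 1.41), Ctsl and Ctss kept their sign at 0.54 and 0.28 but missed the threshold, and Ulk1 and Wipi1 were the 2 called higher with calycosin before LPS.

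**Figure D1:**
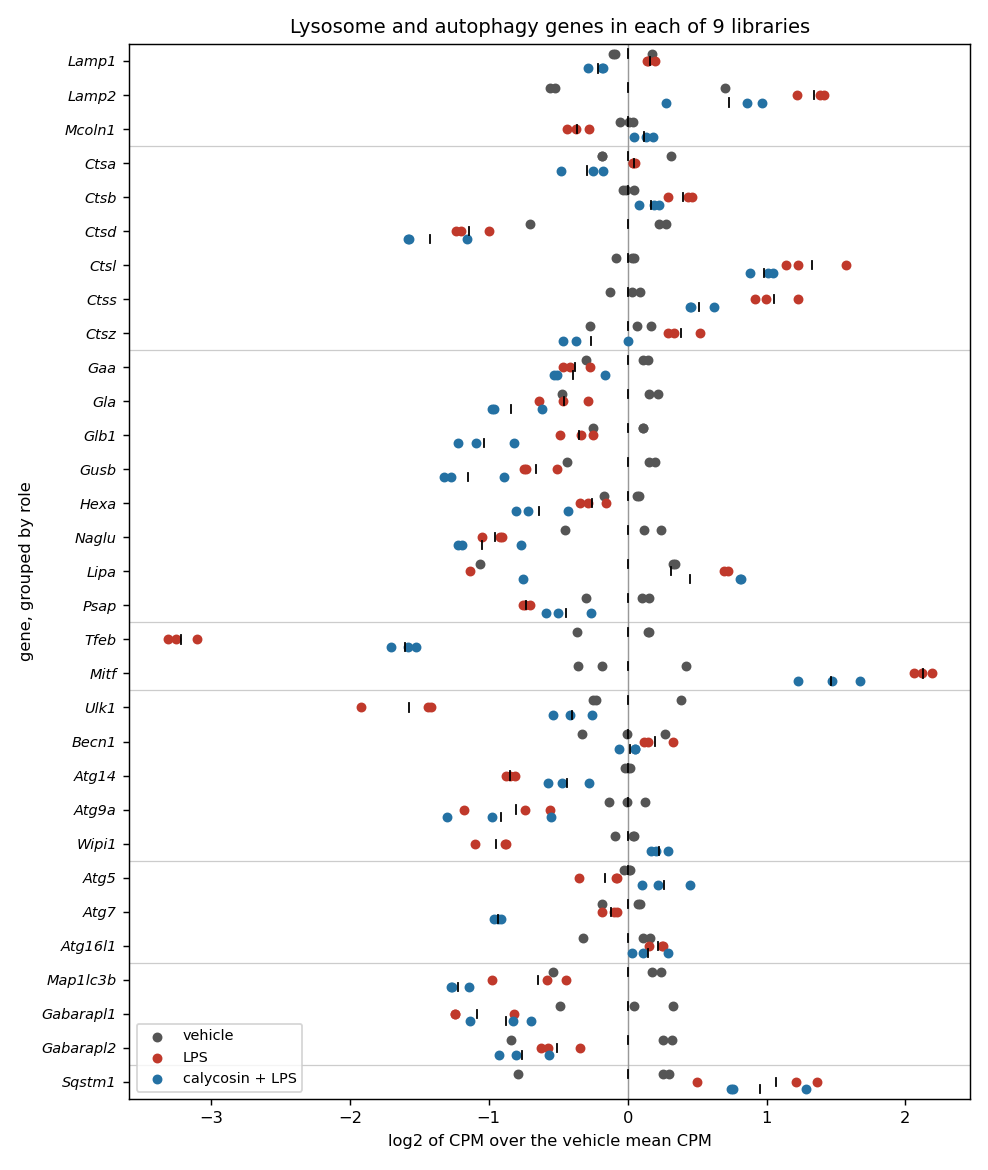
Level of each of the 31 tested members in each of the 9 libraries, as log2 of CPM over the vehicle mean CPM (horizontal axis), with genes grouped by role. Points are libraries coloured by group and black ticks are group means. Tfeb lies lowest and Mitf highest in the LPS libraries, and Lipa has 1 low library in every group.

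**Figure D2:**
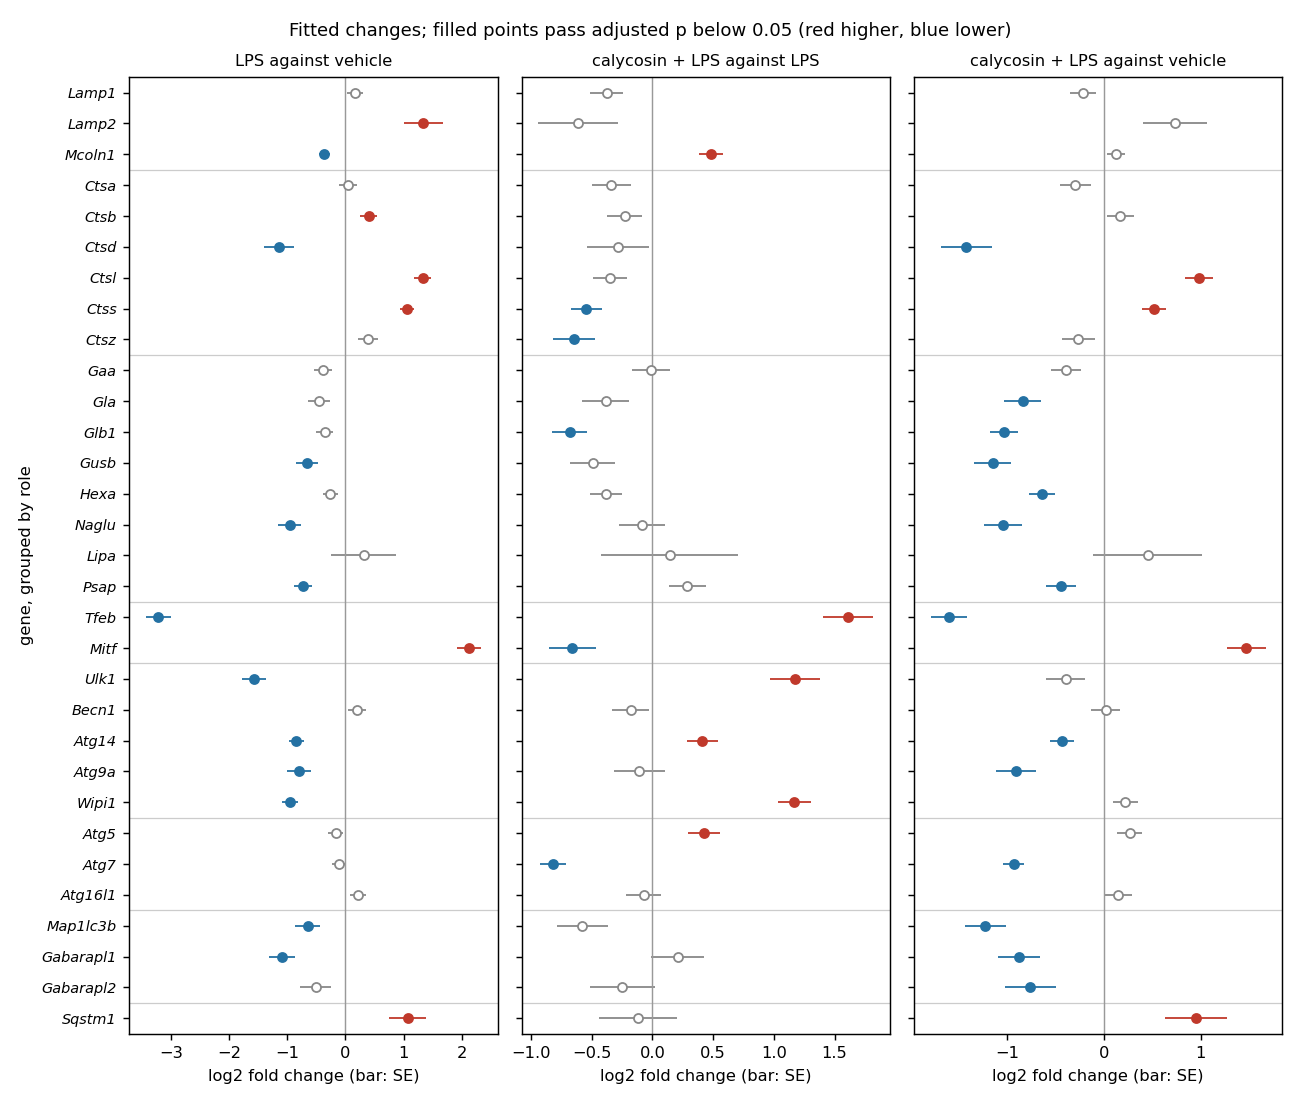
Fitted log2 fold change of each tested member in the 3 comparisons (TMM-scaled counts, edgeR), with bars for 1 SE and filled points where the adjusted p was below 0.05. With LPS 6 members were higher and 12 lower, and with calycosin before LPS 6 were higher and 5 lower than with LPS. Of all genes tested, 27.3% and 28.9%, and 16.1% and 12.9%, were called in these directions. In the first panel 8 members (Lamp1, Ctsa, Ctsb, Ctsz, Lipa, Becn1, Atg16l1 and Sqstm1) had the opposite sign in a fit on the TPM scale, as had 9 in the second and 7 in the third.

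The pair of transcription factors moved apart. Tfeb (chromosome 17, 47737030 to 47792419, GRCm38) stood at 10.5, 10.6 and 7.39 CPM with vehicle, 0.956, 1.11 and 0.997 CPM with LPS and 2.91, 3.17 and 3.30 CPM with calycosin plus LPS. The 3 groups did not overlap, with the LPS libraries close together at the bottom and the pretreated ones between them and vehicle. With LPS it fell 9.29-fold (log2 fold change -3.21 ± 0.21 SE, adjusted p = 1.15e-06), and with calycosin before LPS it was 3.06-fold higher than with LPS alone (log2 fold change 1.61 ± 0.21 SE, adjusted p = 0.000617). It was still 3.04-fold below vehicle (log2 fold change -1.60 ± 0.19 SE, adjusted p = 0.000101). The LPS libraries held 21 to 27 counts of Tfeb each, so its level there rests on few reads. In the limma fit of log2(TPM + 1) the difference between the LPS groups missed the threshold, at a log2 difference of 1.03 (adjusted p = 0.0627).

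Mitf (chromosome 6, 97807052 to 98021349), best known from pigment cells and osteoclasts, went the other way. It measured 27.0, 23.9 and 41.1 CPM with vehicle, 134, 140.4 and 128 CPM with LPS and 97.8, 71.9 and 85.0 CPM with calycosin plus LPS. No group overlapped another, and vehicle replicate 3 was the highest of its group. LPS raised it 4.37-fold (log2 fold change 2.13 ± 0.20 SE, adjusted p = 1.66e-05), and calycosin pretreatment left it 1.58-fold lower than LPS alone (log2 fold change -0.66 ± 0.20 SE, adjusted p = 0.0319) and 2.77-fold above vehicle. The call between the LPS groups was lost when single libraries were left out, with log2 fold changes of -0.55 to -0.69 in those fits. Each of them has 1 library fewer, which by itself weakens the test. Without LPS replicate 1, 2 or 3 the adjusted p was 0.0813, 0.0965 and 0.0657, and without calycosin plus LPS replicate 2 or 3 it was 0.111 and 0.0875.

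At the lysosomal membrane, the 3 members gave 3 patterns. Lamp1, an abundant glycoprotein that lines the membrane, measured 1693, 1682 and 2043 CPM with vehicle, 1996, 1991 and 2075 CPM with LPS and 1590, 1482 and 1596 CPM with calycosin plus LPS. Vehicle and LPS overlapped, and the pretreated libraries lay below all others. Lamp1 did not pass the test in any comparison (with LPS log2 fold change 0.16 ± 0.13 SE, adjusted p = 0.326). Between the LPS groups it had log2 fold change -0.38 ± 0.13 SE, adjusted p = 0.0602. RLE scaling, DESeq2, only the 2 groups, the GC content offset and the mitochondrial share as covariate each called Lamp1 lower there. The fits of TPM values and the fits without a single library did not. Lamp2, which also serves chaperone-mediated autophagy, measured 360.0, 351 and 842 CPM with vehicle, 1377, 1352 and 1207 CPM with LPS and 942, 627 and 1011 CPM with calycosin plus LPS. All LPS libraries were above all vehicle libraries, vehicle replicate 3 was more than double the other vehicle libraries, and it lay within the range of the pretreated group. Lamp2 rose 2.53-fold with LPS (log2 fold change 1.34 ± 0.33 SE, adjusted p = 0.00686). Against vehicle the pretreated group missed the threshold, and passed it without vehicle replicate 3, at a log2 fold change of 1.24 (adjusted p = 0.000506). Mcoln1, the calcium channel of the lysosome, measured 76.4, 79.8 and 81.6 CPM with vehicle, 65.4, 58.4 and 61.2 CPM with LPS and 81.9, 90.0 and 86.7 CPM with calycosin plus LPS. Its LPS libraries were the lowest and did not overlap either other group. It fell 1.28-fold with LPS (log2 fold change -0.36 ± 0.10 SE, adjusted p = 0.00924) and was 1.40-fold higher with calycosin before LPS (log2 fold change 0.48 ± 0.10 SE, adjusted p = 0.00502), at a level 1.09-fold that of vehicle, which missed the threshold.

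Of the 6 cathepsins tested, 3 rose and 1 fell with LPS, and 2 were lower with calycosin before LPS than with LPS alone. Of all genes tested, 27.3% rose and 28.9% fell with LPS, and 12.9% were lower between the LPS groups. Ctsl, a cysteine protease of the lysosome, measured 481, 484 and 444 CPM with vehicle, 1033, 1101 and 1398 CPM with LPS and 944, 969 and 863 CPM with calycosin plus LPS. Vehicle was lowest and LPS highest, with no overlap of any pair of groups. It rose 2.51-fold with LPS (log2 fold change 1.33 ± 0.14 SE, adjusted p = 3.79e-05) and remained 1.97-fold above vehicle after pretreatment (adjusted p = 0.000413). Ctss, the protease that trims the invariant chain of class II MHC, measured 291, 304 and 260.5 CPM with vehicle, 539, 569 and 668 CPM with LPS and 391, 438 and 389 CPM with calycosin plus LPS, again with 3 separate groups. It rose 2.08-fold with LPS (log2 fold change 1.05 ± 0.13 SE, adjusted p = 7.02e-05), and calycosin pretreatment left it 1.46-fold lower than LPS alone (log2 fold change -0.54 ± 0.12 SE, adjusted p = 0.00996). Ctsz, a cysteine carboxypeptidase, measured 854, 917 and 678 CPM with vehicle, 1027, 997 and 1170 CPM with LPS and 590.5, 819.5 and 629.5 CPM with calycosin plus LPS. The LPS libraries lay above all others, while the vehicle and pretreated groups overlapped. The difference between LPS and vehicle missed the threshold (adjusted p = 0.0804), and it was 1.57-fold lower with calycosin before LPS (log2 fold change -0.65 ± 0.17 SE, adjusted p = 0.0189). That call was lost without LPS replicate 3 or without calycosin plus LPS replicate 1 or 3, at adjusted p of 0.0606, 0.0812 and 0.0736.

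Ctsd, the main aspartic protease of the lysosome, went down. It measured 5120, 5306 and 2688 CPM with vehicle, 1858, 1901 and 2187 CPM with LPS and 1464, 1963 and 1466 CPM with calycosin plus LPS. The first and second vehicle libraries stood at nearly double the third, all 3 were above the LPS libraries, and LPS and pretreated libraries overlapped. Ctsd fell 2.21-fold with LPS (log2 fold change -1.14 ± 0.26 SE, adjusted p = 0.0042) and was 2.68-fold below vehicle with calycosin plus LPS (adjusted p = 0.00164), with no call between the LPS groups (adjusted p = 0.444). Its exons share 34.4% of their bases with the gene model Gm49369 on the same strand, so some of its reads cannot be assigned to 1 of them. Ctsb, a cysteine protease, was called higher with LPS at only 1.32-fold (log2 fold change 0.40 ± 0.14 SE, adjusted p = 0.0371) with non-overlapping groups, and had the opposite sign on the TPM scale, at -0.38. The Ctsb call was also lost without vehicle replicate 1 or 2 or without LPS replicate 1 or 2, at adjusted p of 0.118, 0.0913, 0.101 and 0.0990. Ctsa, a serine carboxypeptidase that stabilises β-galactosidase, ranged from 632 to 1092 CPM and missed the threshold of the fit on counts in every comparison. In the limma fit of log2(TPM + 1) it was called lower with LPS than with vehicle (log2 difference -0.90, adjusted p = 0.00538). The pretreated group was also called lower than vehicle there (-0.84, adjusted p = 0.0134).

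Of the 8 hydrolases and activator genes tested, 3 fell with LPS and 1 was lower with calycosin before LPS than with LPS alone. In the pretreated group 6 were below vehicle, and none was called higher in any comparison. The shares of all genes called lower were 28.9%, 12.9% and 23.6% in that order. Naglu, which removes N-acetylglucosamine from heparan sulfate, measured 62.2, 67.7 and 41.9 CPM with vehicle, 27.6, 30.2 and 30.6 CPM with LPS and 24.5, 33.7 and 25.1 CPM with calycosin plus LPS. Vehicle lay above both other groups, which overlapped each other. It fell 1.94-fold with LPS (log2 fold change -0.96 ± 0.19 SE, adjusted p = 0.00214). Psap, the precursor of the saposins that present lipids to the hydrolases, measured 1341, 1390 and 1017 CPM with vehicle, 767, 739.5 and 749 CPM with LPS and 830.3, 1039 and 881 CPM with calycosin plus LPS. Its LPS libraries were lowest, below both other groups, and vehicle replicate 3 reached into the pretreated range. Psap fell 1.66-fold with LPS (log2 fold change -0.73 ± 0.15 SE, adjusted p = 0.0027). Its lower level in the pretreated group against vehicle (1.36-fold, adjusted p = 0.0357) was lost without vehicle replicate 1 or 2 (0.0946 and 0.103) or without calycosin plus LPS replicate 1 or 3 (0.135 and 0.116).

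Gusb, the β-glucuronidase, measured 573, 591 and 381 CPM with vehicle, 307, 311 and 362 CPM with LPS and 213, 277 and 206 CPM with calycosin plus LPS, a stepwise order without overlap. It fell 1.58-fold with LPS (log2 fold change -0.66 ± 0.19 SE, adjusted p = 0.014), a call lost without LPS replicate 1 or 2 at adjusted p of 0.0530 and 0.0522, and stood 2.22-fold below vehicle in the pretreated group (log2 fold change -1.15 ± 0.19 SE, adjusted p = 0.000886). Glb1, the β-galactosidase read out in senescence staining, measured 115, 114 and 89.2 CPM with vehicle, 84.2, 75.7 and 89.5 CPM with LPS and 45.5, 60.1 and 49.8 CPM with calycosin plus LPS. The pretreated libraries were the lowest and overlapped no other group, while vehicle replicate 3 lay just inside the LPS range. Glb1 was 1.60-fold lower with calycosin before LPS than with LPS (log2 fold change -0.68 ± 0.15 SE, adjusted p = 0.00721) and 2.05-fold below vehicle (log2 fold change -1.03 ± 0.15 SE, adjusted p = 0.000338). Hexa, the α subunit of β-hexosaminidase, measured 434, 429.9 and 364 CPM with vehicle, 336, 322 and 368 CPM with LPS and 235, 304 and 248 CPM with calycosin plus LPS. The pretreated libraries were all below both other groups. Hexa was 1.56-fold below vehicle (log2 fold change -0.64 ± 0.13 SE, adjusted p = 0.00342). Between the LPS groups it missed the threshold (adjusted p = 0.0573), while RLE scaling, DESeq2 and only the 2 groups each called it lower. Gla, the α-galactosidase deficient in Fabry disease, measured 99.1, 104 and 64.1 CPM with vehicle, 57.3, 64.5 and 73.1 CPM with LPS and 45.3, 58.1 and 45.6 CPM with calycosin plus LPS, with the third vehicle library inside the LPS range and above 3 of 3 pretreated ones. It was 1.79-fold below vehicle (log2 fold change -0.84 ± 0.19 SE, adjusted p = 0.00568). Without vehicle replicate 3, LPS against vehicle was also called lower for Gaa, Gla, Glb1 and Hexa, at log2 fold changes of -0.57, -0.70, -0.52 and -0.39 (adjusted p of 0.00294, 0.00171, 0.00562 and 0.0181). Gaa, the acid α-glucosidase that digests glycogen, was -0.38 ± 0.15 (SE) in log2 with all vehicle libraries kept.

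Lipa (chromosome 19, 34492318 to 34527474), the acid lipase that frees cholesterol from lipoproteins, measured 376, 371 and 142 CPM with vehicle, 135, 479.9 and 488 CPM with LPS and 518, 176 and 522 CPM with calycosin plus LPS. Each group held 1 library at 134.9 to 176 CPM and 2 libraries at 371.3 to 522.3 CPM, so the groups overlapped fully. The low libraries were vehicle replicate 3, LPS replicate 1 and calycosin plus LPS replicate 2. The fitted change was 0.31 ± 0.56 (SE) in log2 with LPS and missed the threshold in every comparison.

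**Figure D3:**
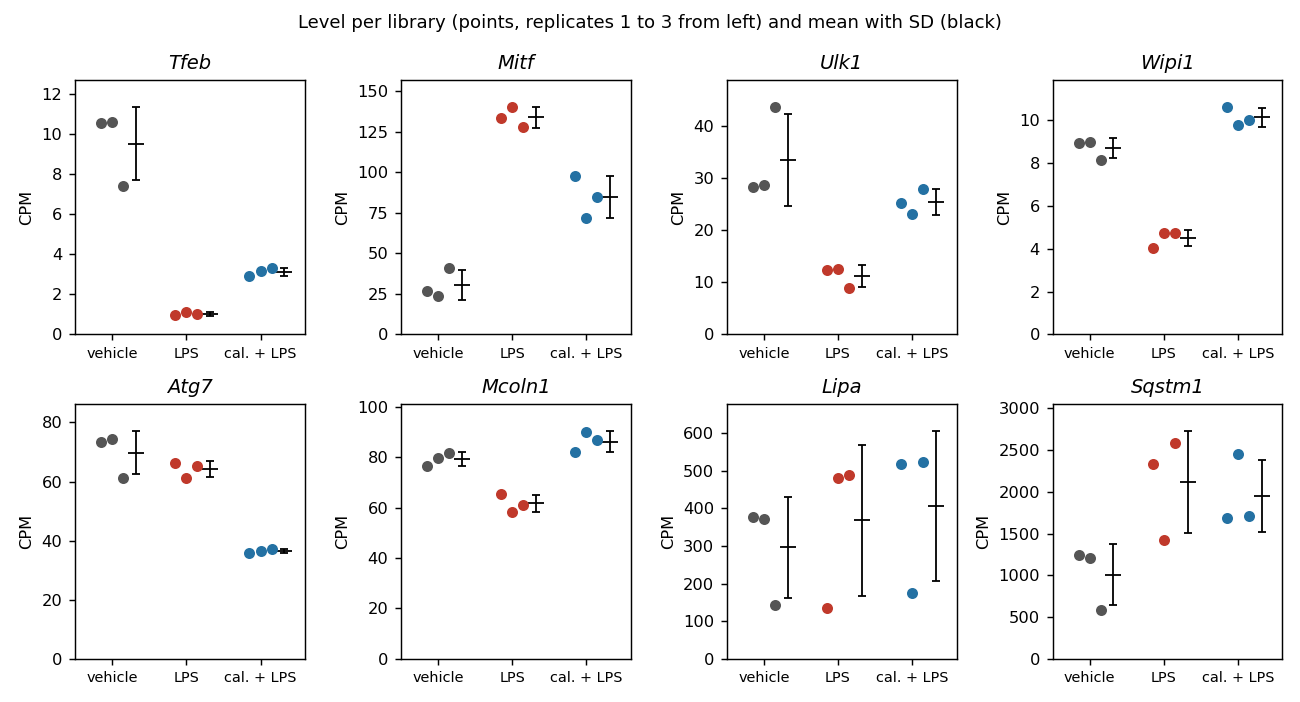
CPM in each library for 8 members, with replicates 1 to 3 from left to right in each group, and the mean with SD in black. Tfeb, Ulk1, Wipi1 and Mcoln1 were lowest with LPS, Mitf was highest with LPS, Atg7 was lowest in the pretreated group, and Lipa split the libraries within each group. For Sqstm1 the higher level with LPS than with vehicle was absent on the TPM scale. So was the lower Atg7 level with calycosin before LPS than with LPS (log2 difference -0.07 in the limma fit of log2(TPM + 1)).

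Of the 5 genes of autophagy initiation and nucleation, 4 fell with LPS and none rose, against 28.9% and 27.3% of all genes tested. Ulk1 (chromosome 5, 110784488 to 110810097), the kinase that starts autophagy, measured 28.2, 28.7 and 43.7 CPM with vehicle, 12.4, 12.6 and 8.85 CPM with LPS and 25.2, 23.2 and 28.0 CPM with calycosin plus LPS. The LPS libraries were the lowest with no overlap, and the pretreated libraries lay just below vehicle. It fell 2.97-fold with LPS (log2 fold change -1.57 ± 0.21 SE, adjusted p = 0.000152) and was 2.26-fold higher with calycosin before LPS (log2 fold change 1.18 ± 0.21 SE, adjusted p = 0.00296). Wipi1 (chromosome 11, 109573331 to 109611967), which binds the phosphoinositide on forming autophagosomes, measured 8.94, 8.98 and 8.15 CPM with vehicle, 4.05, 4.72 and 4.74 CPM with LPS and 10.6, 9.79 and 10.0 CPM with calycosin plus LPS. LPS libraries were again lowest, and the pretreated ones lay above every vehicle library. It fell 1.93-fold with LPS (log2 fold change -0.95 ± 0.14 SE, adjusted p = 0.000239) and was 2.25-fold higher in the pretreated group than with LPS (log2 fold change 1.17 ± 0.14 SE, adjusted p = 0.000393). Against vehicle neither passed the threshold, with log2 fold changes of -0.40 ± 0.20 (SE) for Ulk1 and 0.22 ± 0.13 (SE) for Wipi1. In the limma fit of log2(TPM + 1), Ulk1 was called lower than vehicle, at a log2 difference of -0.83 (adjusted p = 0.0119). Wipi1 had the opposite sign in that fit, at -0.28, and missed the threshold. Ulk1 was also called lower than vehicle with the mitochondrial share as covariate.

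Atg14, the subunit that targets the lipid kinase complex to autophagy, measured 12.7, 12.9 and 13.1 CPM with vehicle, 7.19, 7.34 and 7.02 CPM with LPS and 10.7, 9.32 and 8.68 CPM with calycosin plus LPS, in 3 separate groups with the pretreated one in between. It fell 1.80-fold with LPS (log2 fold change -0.85 ± 0.13 SE, adjusted p = 0.000326). Its 1.33-fold higher level with calycosin before LPS (adjusted p = 0.0361) was lost without LPS replicate 1, 2 or 3 (0.0821, 0.0809 and 0.0786) and without calycosin plus LPS replicate 1 or 2 (0.134 and 0.0695). Its lower level in the pretreated group than with vehicle (1.35-fold, adjusted p = 0.0159) was lost without calycosin plus LPS replicate 2 or 3 (0.0507 and 0.0779). Atg9a, the membrane protein of the vesicles that seed autophagosomes, measured 70.0, 64.2 and 58.7 CPM with vehicle, 38.5, 28.5 and 43.6 CPM with LPS and 26.1, 43.9 and 32.6 CPM with calycosin plus LPS. Vehicle lay above both other groups, which overlapped. It fell 1.74-fold with LPS (log2 fold change -0.80 ± 0.21 SE, adjusted p = 0.00878), a call lost with the GC content offset (log2 fold change -0.44, adjusted p = 0.0544) and with only libraries above 10% mitochondrial counts (-0.69, adjusted p = 0.0521). It was 1.88-fold below vehicle after pretreatment (adjusted p = 0.00568). Becn1, the scaffold of the lipid kinase complex, ranged from 40.0 to 62.9 CPM and missed the threshold of the fit on counts in every comparison.

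In the conjugation machinery no member of 3 was called with LPS against vehicle. Atg7 (chromosome 6, 114643097 to 114860614), the enzyme that activates ATG8 proteins and ATG12 for conjugation, measured 73.5, 74.3 and 61.3 CPM with vehicle, 66.2, 61.3 and 65.1 CPM with LPS and 35.8, 36.5 and 37.1 CPM with calycosin plus LPS. The pretreated libraries agreed closely and lay far below both other groups, which overlapped. Atg7 was 1.76-fold lower with calycosin before LPS than with LPS (log2 fold change -0.82 ± 0.11 SE, adjusted p = 0.000658) and 1.91-fold below vehicle (log2 fold change -0.93 ± 0.11 SE, adjusted p = 8.89e-05). Atg5, which is joined to ATG12, was 1.34-fold higher in the pretreated group (log2 fold change 0.43 ± 0.13 SE, adjusted p = 0.0353). That call was lost without LPS replicate 1 or 2 (0.0634 and 0.126) and without calycosin plus LPS replicate 1 or 3 (0.133 and 0.0712). Atg16l1, which places the ATG5 complex on membranes, ranged from 27.2 to 41.5 CPM and missed the threshold of the fit on counts in every comparison. Of the 11 calls between the LPS groups, 8 were lost in all 3 fits of the TPM values. With log2(TPM + 1) the log2 difference was -0.07 for Atg7, -0.35 for Glb1, -0.21 for Ctss, -0.33 for Ctsz and -0.26 for Mitf, smaller than on counts, and 0.84 for Mcoln1, 0.58 for Atg14 and 0.69 for Atg5, larger than on counts.

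Of the 3 ATG8 genes, 2 fell with LPS and all 3 were lower than vehicle with calycosin plus LPS. None was called between the LPS groups. Of all genes tested, 28.9% fell with LPS and 23.6% were lower than vehicle in the pretreated group. Map1lc3b, whose lipidated protein marks autophagosomes, measured 88.1, 83.9 and 51.2 CPM with vehicle, 54.8, 49.8 and 37.8 CPM with LPS and 31.0, 33.8 and 30.8 CPM with calycosin plus LPS. The third vehicle library lay within the LPS range, and the pretreated libraries were below all others. It fell 1.57-fold with LPS (log2 fold change -0.65 ± 0.21 SE, adjusted p = 0.024). The LPS call was lost without vehicle replicate 1 or 2 (0.0743 and 0.0655) or LPS replicate 2 or 3 (0.0526 and 0.0889). In the pretreated group it stood 2.34-fold below vehicle (log2 fold change -1.23 ± 0.21 SE, adjusted p = 0.00115). Between the LPS groups it missed the threshold (log2 fold change -0.58 ± 0.21 SE, adjusted p = 0.0656), which it passed without LPS replicate 3 (0.0465). It was also called lower there with RLE scaling, DESeq2, only the 2 groups, the GC content offset, the mitochondrial share as covariate or the replicate block. In the limma fit of log2(TPM + 1) the log2 difference was -0.19 and missed the threshold. Gabarapl1 measured 53.5, 65.2 and 37.1 CPM with vehicle, 21.9, 21.9 and 29.5 CPM with LPS and 32.0, 29.3 and 23.6 CPM with calycosin plus LPS, with vehicle above both other groups. It fell 2.12-fold with LPS (log2 fold change -1.09 ± 0.22 SE, adjusted p = 0.00218) and its level in the pretreated group was 1.84-fold below vehicle (adjusted p = 0.00841). Gabarapl2 measured 40.9, 42.7 and 19.1 CPM with vehicle, 22.2, 23.0 and 27.0 CPM with LPS and 19.6, 23.1 and 18.0 CPM with calycosin plus LPS. The third vehicle library was below all LPS libraries, so the groups overlapped in both comparisons with vehicle. It was 1.69-fold below vehicle in the pretreated group (log2 fold change -0.76 ± 0.27 SE, adjusted p = 0.039). That call was lost without vehicle replicate 1 or 2 (adjusted p of 0.118 and 0.127). It was also lost without calycosin plus LPS replicate 1, 2 or 3 (0.105, 0.0506 and 0.123). In these fits the log2 fold change was -0.61 to -0.86. Without vehicle replicate 3, Gabarapl2 was called lower with LPS at -0.85 in log2 (adjusted p = 0.000461).

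Sqstm1, the cargo receptor p62 and a target of the oxidative stress factor NRF2, was the only tested cargo receptor among the members. It measured 1237, 1202 and 583 CPM with vehicle, 2331, 1427 and 2585 CPM with LPS and 1690, 2450 and 1707 CPM with calycosin plus LPS. Every LPS and pretreated library lay above every vehicle library, LPS replicate 2 was the lowest of its group, and calycosin plus LPS replicate 2 was the highest of its group. It rose 2.10-fold with LPS (log2 fold change 1.07 ± 0.32 SE, adjusted p = 0.0178), while on the TPM scale the log2 difference was -0.01. The call was lost without LPS replicate 1 (adjusted p = 0.0538) or 3 (0.0645). Sqstm1 was 1.93-fold above vehicle in the pretreated group (log2 fold change 0.95 ± 0.32 SE, adjusted p = 0.0338), a call lost without vehicle replicate 2 or 3 (0.0513 and 0.0554) or without calycosin plus LPS replicate 1, 2 or 3 (0.0507, 0.101 and 0.0504). Optn had 0 counts in all vehicle libraries, 4, 8 and 6 counts with LPS and 0, 4 and 2 with calycosin plus LPS, where a count of 0 allows up to 3 counts (0.0602 to 0.137 CPM, depending on the library).

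Of the 10 members with the TCACGTG heptamer in a promoter window (Atg14, Atg7, Ctsa, Ctsd, Gaa, Gla, Glb1, Lamp1, Mcoln1 and Naglu), none was higher and 4 were lower with LPS, 2 were higher and 2 lower with calycosin before LPS against LPS, and none was higher and 6 were lower with calycosin plus LPS against vehicle. Of the 18 tested members whose windows lacked it, the counts were 5 higher and 8 lower, 4 and 3, and 4 and 8. Of all genes tested, 27.3% and 28.9%, 16.1% and 12.9%, and 25.4% and 23.6% were called in these directions. The medians in log2, with the heptamer and without, were -0.37 and -0.38, -0.31 and -0.18, and -0.64 and -0.33 in that order. The difference between these sets was not tested. Of the genes printed above, Mcoln1, with 2 CACGTG cores upstream, fell with LPS and was higher with calycosin before LPS. The same held for Wipi1, whose window lies inside the gene and had none. Ctsd, with 2 cores, and Naglu, with 1, also fell with LPS and were not called between the LPS groups. Lamp1, with 4 cores, missed the threshold of the fit on counts in every comparison, though some alternative fits called it lower between the LPS groups. Glb1 and Atg7, with 1 each, were lower with calycosin before LPS.

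The rest of the pathway was described with 10 further lists of 170 genes, of which 167 were matched and 165 tested. Of these, 42 were higher and 48 lower with LPS (median log2 fold change -0.14), 24 higher and 35 lower with calycosin before LPS against LPS (0.02), and 38 higher and 53 lower with calycosin plus LPS against vehicle (-0.14). Among all genes tested the shares called higher and lower were 27.3% and 28.9%, 16.1% and 12.9%, and 25.4% and 23.6%, against 25.5% and 29.1%, 14.5% and 21.2%, and 23.0% and 32.1% of these 165. In the limma fit of log2(TPM + 1), 162 were tested and the counts were 6 higher and 91 lower, 13 and 2, and 7 and 47. Over the 12879 genes of that fit they were 1342 and 6432, 1345 and 286, and 1331 and 3386. All 18 V-ATPase genes were tested. With LPS 7 were higher and 2 lower, and with calycosin before LPS none was higher and 8 were lower than with LPS. RLE scaling gave 7 and 2, and 0 and 9, but the limma fit of log2(TPM + 1), with its shift of all genes, turned the first split to 1 higher and 6 lower and gave 1 higher and 0 lower for the second. Less the median of all genes, the V-ATPase median in log2 was 0.28 and -0.40 on counts, and 0.17 and -0.35 in the limma fit. Atp6v0c, of the membrane ring, went from 229 ± 126 to 665 ± 34.3 CPM (SD, n = 3), 2.91-fold higher (adjusted p = 0.0158). Atp6v1b2, of the cytosolic sector, had the largest called fall in the pretreated group, 1.55-fold from 282 ± 9.03 to 182 ± 13.8 CPM (adjusted p = 0.00897).

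Of 26 further hydrolases and activators, 2 were higher and 11 lower with LPS, and 4 were higher and 4 lower with calycosin before LPS. For this list and those that follow, the shares over all genes tested were 27.3% and 28.9%, and 16.1% and 12.9%. Sgsh, the sulfamidase that acts beside NAGLU on heparan sulfate, went from 61.6 ± 8.75 to 6.82 ± 0.356 CPM with LPS (log2 fold change -3.17 ± 0.15 SE, adjusted p = 1.15e-07) and was 2.06-fold higher with calycosin before LPS, at 14.0 ± 1.19 CPM. The largest rise with LPS in this list was that of the acid phosphatase gene Acp2, 1.34-fold. Of 12 further proteases and cystatins, 4 were higher and 2 lower with LPS, and 2 were higher and 3 lower with calycosin before LPS. Ctse rose 2.05-fold with LPS and was 2.88-fold lower with calycosin before LPS. Ctsf fell 2.77-fold with LPS, and Ctsh was 2.01-fold higher in the pretreated group.

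Of 23 further membrane proteins and transporters, 9 were higher and 6 lower with LPS, and 5 were higher and 4 lower with calycosin before LPS. Slc15a3, a transporter of histidine and bacterial peptides, rose from 16.1 ± 2.78 to 1036 ± 46.4 CPM with LPS, 64.5-fold, and Tpcn1, an endolysosomal cation channel, fell 3.30-fold. With calycosin before LPS the cystine exporter Ctns was 2.32-fold higher. Mcoln2, a channel related to Mcoln1, was 2.63-fold lower, at 23.2 ± 1.31, 180.3 ± 2.81 and 68.6 ± 4.96 CPM in the 3 groups, so that its LPS level was high where that of Mcoln1 was low. Of 9 sorting genes, 2 were higher and 3 lower with LPS, and 1 was higher and 2 lower with calycosin before LPS. The mannose 6-phosphate receptor gene M6pr rose 2.70-fold and the adaptor gene Gga2 fell 5.11-fold with LPS. With calycosin before LPS the same genes led in the opposite directions, M6pr 1.43-fold lower and Gga2 1.75-fold higher.

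Of 24 partners of the TFEB family and genes of nutrient sensing, 6 were higher and 7 lower with LPS, and 4 were higher and 6 lower with calycosin before LPS. The sestrin genes, inhibitors of the growth kinase mTORC1, were at both ends with LPS: Sesn2 rose 2.46-fold and Sesn1 fell 14.3-fold. Sesn1 was 3.28-fold higher with calycosin before LPS, and Tfec, a macrophage-enriched relative of Tfeb and Mitf, was 2.05-fold lower, at 16.2 ± 1.43 against 7.94 ± 1.10 CPM (adjusted p = 0.000793).

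Among 17 further initiation and lipid transfer genes, 4 were higher and 6 lower with LPS, and 2 were higher and 5 lower with calycosin before LPS. Atg13, the ULK1 partner, rose 2.43-fold with LPS where Ulk1 fell, and the lipid transfer gene Atg2a fell 2.41-fold. In the pretreated group Rb1cc1, the scaffold of the ULK1 complex, was 1.88-fold lower and Rubcn, an inhibitor of autophagy, 1.54-fold higher than with LPS. Of 10 further conjugation and ATG8 genes, 4 were higher and 1 lower with LPS (Atg3 2.02-fold higher, Atg16l2 2.82-fold lower), and 1, Atg16l2, was 1.92-fold higher with calycosin before LPS. Of 11 further cargo receptors and their kinase, 2 were higher and 3 lower with LPS, and 3 were higher and 2 lower with calycosin before LPS. Tbk1, a kinase that phosphorylates cargo receptors, rose 4.79-fold with LPS and was 1.71-fold lower with calycosin before LPS. The mitophagy receptor gene Bnip3l fell 3.11-fold with LPS, and Calcoco1 was 1.53-fold higher in the pretreated group.

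Of 15 genes of fusion with lysosomes, 2 were higher and 7 lower with LPS, and 2 were higher and 1 lower with calycosin before LPS. The small GTPase gene Rab7 rose 2.65-fold with LPS and was 2.31-fold lower in the pretreated group. Tecpr1, a tether of autophagosomes and lysosomes, fell 4.55-fold with LPS, and the SNARE gene Stx17 was 1.64-fold higher with calycosin before LPS. Against vehicle, the largest called differences in the pretreated group were, among the genes named by the same rule, Slc15a3 at 33.6-fold and Ctsh at 3.22-fold higher, and Deptor at 8.03-fold, Ctsf at 4.59-fold and Dnase2a at 4.41-fold lower.

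**Figure D4:**
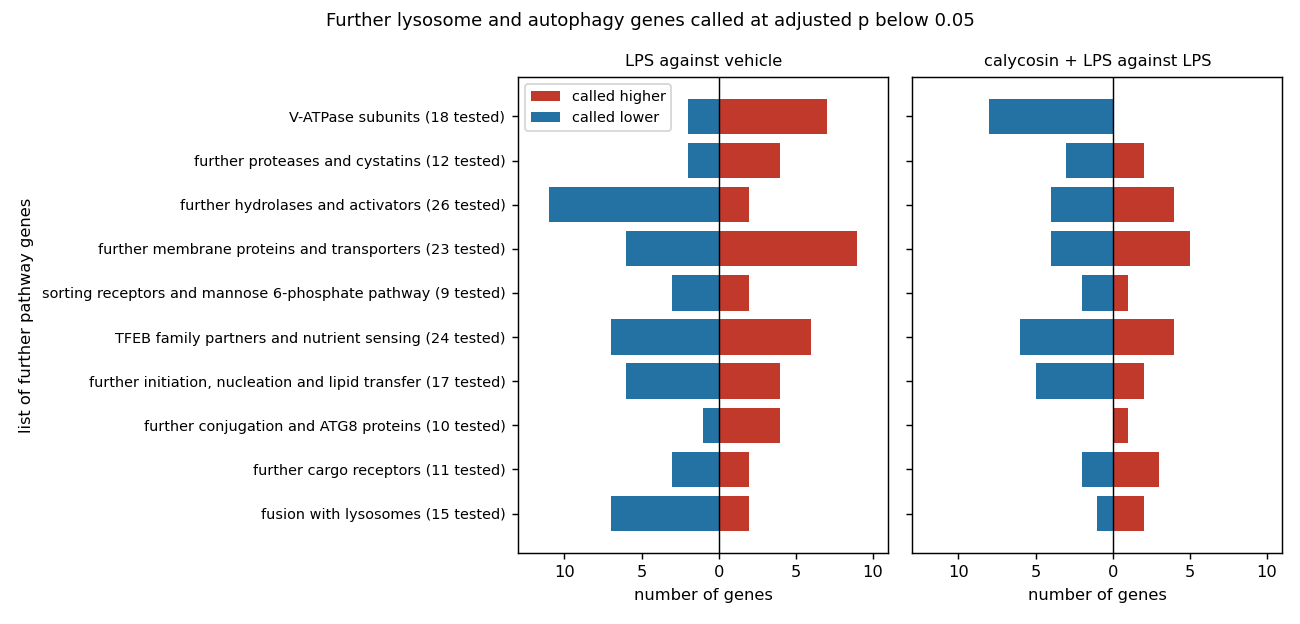
Number of genes called higher (red, to the right) and lower (blue, to the left) in each further list, for LPS against vehicle and for calycosin plus LPS against LPS (adjusted p below 0.05, edgeR on TMM-scaled counts). Over all genes tested, 28.9% were lower with LPS than with vehicle and 12.9% with calycosin before LPS than with LPS. With LPS 11 of 26 further hydrolases were lower. With calycosin before LPS 8 of 18 V-ATPase genes were lower, a count that was 0 on the TPM scale. In that TPM fit, limma on log2(TPM + 1), 286 of all 12879 genes were lower between the LPS groups. The V-ATPase median log2 difference less that of all genes was -0.40 on counts and -0.35 in that fit.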

How the data were processed

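RNA of 9 libraries was measured as described above. Trizol extraction and capture on poly-T beads are stated per the labels' protocols. Per the submitters' processing notes, Trimmomatic 0.36, HISAT2 2.0, StringTie 1.3.3b and genome build mm10 were used. The authors deposited raw counts per Ensembl gene as whole numbers for 51826 genes, while the counter, annotation release, strandedness and treatment of multi-mapped reads were not given in the sources used here. The deposited TPM values, which the authors scaled for length and depth, cover 51799 genes and have, per the file headers, the layout of StringTie's gene table.

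The default filterByExpr of edgeR kept 14458 genes, which were scaled by TMM (factors 0.786 to 1.42). Counts of all 9 libraries were fitted with edgeR 4.0.16 (R 4.3.3), 1 term per group, and groups were set against each other in two-sided quasi-likelihood F tests, with p adjusted by Benjamini-Hochberg over all genes tested and a threshold of 0.05. "Rose", "fell", "higher" and "lower" as calls mean passing it. The SE was derived from the F statistic. With 3 libraries against 3, an exact permutation test of 1 gene cannot go below 0.1, so these tests rest on the spread shared across genes. Counting error is small at this depth for all but the members with few counts. The script was tested on simulated data with known changes.

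Full values were given for members called with a change of at least 1.5-fold and for Tfeb, Mitf, Lamp1, Sqstm1 and Map1lc3b. Of each further list, the called genes with the largest rise and fall at a mean of at least 5 CPM were named, for calycosin plus LPS against vehicle only the largest of these. A result that this rule would name is not reported here. The members, the lists, the motifs and these rules were chosen with earlier results of these data known, so they give no independent support. Itgam, which has 2 identifiers in the table, was left out of the macrophage markers, and Castor2, Retreg1 and Vamp7 had no row under these names. Positions and exon overlaps are from GENCODE M21 (GRCm38), promoter windows from RefSeq (GRCm38.p6). Without stated strandedness, reads of overlapping genes cannot be told apart, and shared exon bases of at least 10% were also found for Becn1, Atg9a, Gabarapl1, Ctsl, Sqstm1, Ctsb, Hexa and Ctsa. Alternatives were RLE scaling, DESeq2 1.42.0, limma 3.58.1 on log2(TPM + 1) and log2(TPM + 0.1), no filter, only the groups compared, a mitochondrial or GC term, a replicate block and leaving out libraries.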

Additional observations from a re-analysis of the deposited data

How the results depend on the processing

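With limma on log2(TPM + 1), log2(TPM + 0.1) and log2(TPM + 1) without a filter, the members called higher and lower were 2 and 20, 2 and 20, and 3 and 16 for LPS against vehicle, 2 and 0, 3 and 0, and 1 and 0 for calycosin plus LPS against LPS, and 1 and 13, 1 and 13, and 1 and 6 for calycosin plus LPS against vehicle. Of 12879, 12879 and 25775 genes in all, 1342 and 6432, 1342 and 6389, and 1503 and 6136 were called for LPS against vehicle. Between the LPS groups these numbers were 1345 and 286, 1631 and 288, and 897 and 300. For calycosin plus LPS against vehicle they were 1331 and 3386, 1317 and 3171, and 1412 and 2794. In all 3 fits LPS against vehicle changed from positive to negative for 8 of the 31 members, Ctsb (-0.38 in each), Ctsa (-0.90 in each), Sqstm1 (-0.0113, -0.0111 and -0.0113), Lamp1 (-0.61 in each), Ctsz (-0.38 in each), Lipa (-0.55 in each), Becn1 (-0.42, -0.43 and -0.42) and Atg16l1 (-0.48, -0.49 and -0.48). Calycosin plus LPS against LPS changed from negative to positive for 9 and calycosin plus LPS against vehicle from positive to negative for 7, none of these 16 called in the fit on counts. The shift of all genes given with the comparisons goes with the loss of TMM scaling in the TPM values. Over all genes, the lower calls between the LPS groups numbered 1871 of 14458 in the fit on counts. They were 2146 with RLE scaling, 2257 of 25790 with DESeq2 and 2391 of 13572 with only the 2 groups. With a GC offset they were 2515, and with the mitochondrial share as covariate 3307. Without the 2 libraries that stood apart they were 2670 of 14845. Among the members the lower calls numbered 8 with RLE scaling, 10 with DESeq2 and 11 with only the 2 groups, against 5. With a GC offset they numbered 9 and with the mitochondrial share as covariate 15. They numbered 13 without the 2 libraries that stood apart and 12 with only libraries above 10% mitochondrial counts, 2 settings added after the data were seen. In the last, LPS against vehicle was also -0.29 for Ctsa. The mitochondrial covariate gave 9 and 15 for LPS against vehicle, with 4541 and 4565 of 14458 genes in all. Among calls on counts, the GC offset also ended those of Map1lc3b with LPS and of Psap and Ctss for calycosin plus LPS against vehicle. Keeping only libraries above 10%, which leaves 1 vehicle library that is assumed to vary like the other groups, ended those of Gusb, Gabarapl1 and Map1lc3b with LPS, of Atg14 between the LPS groups, and of Psap, Atg14, Gabarapl1, Gabarapl2 and Gla against vehicle. RLE scaling ended those of Atg14 and Atg5 between the LPS groups, and leaving out the 2 libraries that stood apart that of Sqstm1 against vehicle. Other causes were not tested.

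Leaving out 1 library gave 4 to 6 higher and 10 to 18 lower members for LPS against vehicle, 4 to 5 and 3 to 5 for calycosin plus LPS against LPS, and 3 to 4 and 11 to 16 for calycosin plus LPS against vehicle. Over all genes, 14649 to 14972 tested, the ranges were 3253 to 4451 and 3605 to 5090 for LPS against vehicle. Between the LPS groups they were 1697 to 1952 and 1224 to 1520. For calycosin plus LPS against vehicle they were 2851 to 4376 and 2523 to 4337. The members called in every fit on counts were 12 of 18, 7 of 11 and 11 of 18 in that order. Same-numbered libraries did not deviate together throughout (correlations of -0.17 to 0.36), so the numbers were not taken as pairs. With the replicate block the calls were 5 and 12, 5 and 6, and 4 and 13, and with the replicate block and the mitochondrial share 9 and 15, 7 and 15, and 6 and 18. Over all 14458 genes they were 3910 and 3930, 2113 and 1701, and 3604 and 3163 with the block. With both terms they were 4348 and 4407, 3344 and 3138, and 4114 and 3572. The LPS libraries held 21 to 27 counts of Tfeb, which limits the precision of its change more than that of abundant members.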

Other observations

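The 5 genes whose log2 CPM followed Tfeb most closely over the 9 libraries, of 9867 ranked, were Them6 (Pearson r = 0.998), Chaf1a (0.997), Wdr91 (0.996), Uhrf1 (0.996) and Fhod1 (0.996). Chaf1a and Uhrf1 act in chromatin assembly and DNA methylation during replication, and Wdr91 in endosome to lysosome traffic. Their mean levels with vehicle, LPS and calycosin plus LPS were 29.5, 6.25 and 14.5 CPM for Them6 and 130.5, 22.6 and 54.9 CPM for Uhrf1. Of the other members, Atg14 came nearest, at rank 340 (r = 0.963), and Mitf ran opposite (r = -0.965). These values describe 9 libraries that share 3 groups, and carry no test.

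The gene nearest to Lipa over the 9 libraries, of 9866 ranked, was Rbm12b1, an RNA-binding protein gene (r = 0.994). It stood at 6.79, 6.72 and 3.71 CPM with vehicle, 3.55, 8.24 and 7.98 CPM with LPS and 8.24, 4.69 and 8.84 CPM with calycosin plus LPS. Its low library in each group was the one in which Lipa was low. The next gene, Tctex1d2, reached r = 0.839. LPS replicate 1 is among the low libraries and had a mitochondrial share of 14.2%, close to the other LPS libraries, unlike vehicle replicate 3 and calycosin plus LPS replicate 2, which stood apart in that share.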
